A study of Saccharomyces cerevisiae with 12 samples.

Results

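The comparison set budding yeast lacking ECM32 directly against yeast lacking SLH1, without passing through the wild type. Its members were the 4 replicate libraries titled for these strains, 2 per strain, of 12 libraries in the series, and all 10799 features of the deposited table except the spike-ins. Every strain was haploid BY4741, MATa with his3Δ1, leu2Δ0, met15Δ0 and ura3Δ. The ecm32 strain additionally carried ecm32Δ::kanMX4 and the slh1 strain slh1Δ::kanMX4. WT, with neither deletion, is shown for orientation only. Cultures grew in YPD at 30°C to an OD600 of 0.5, and stranded libraries were made from 50 ng of RNA depleted of ribosomal RNA. Nothing in the labels says whether replicates came from separate cultures, so p-values measure only the spread between libraries, pooled over the 5 deletion strains.

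Ecm32 (also Mtt1) is an RNA helicase that binds the translation release factors and has a part in termination at stop codons. Slh1 is a helicase of the Ski2 family and a subunit of the ribosome quality control trigger complex, which splits ribosomes that have collided on an mRNA. The title of the series asks about XUTs, noncoding RNAs that the exonuclease Xrn1 degrades in the cytoplasm. Setting the 2 deletions side by side asks where transcript levels differ when either helicase is missing. In yeast, the genes for making ribosomes (the ribosome biogenesis regulon) and the genes of the environmental stress response are known to move in opposite directions with growth conditions.

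Levels are given as rescaled density, which is reads per nucleotide of a feature after size factors had brought the 12 libraries to a common scale. The factors were median ratios over 5917 rows with ids starting with Y, mostly protein-coding genes. The 4 libraries held 14.16 to 17.66 M reads each, within 8.79 to 17.66 M over the series. Differences between replicates were 6.31 times (ecm32) and 10.9 times (slh1) what counting alone gives, as chi-square per degree of freedom. The MATa genes STE2, MFA1, MFA2, BAR1, STE6, AGA2 and ASG7 were detected in all 4 libraries. The MATalpha genes MF(ALPHA)1 and MF(ALPHA)2 had 8 and 16 reads over the 4 libraries and STE3 had 74, whereas SAG1 had 1226. LEU2 and URA3 had 1 read each and MET17 none, whereas HIS3, of which his3Δ1 is known to remove only a part, had 2018. The libraries labelled ski2 and dbp1 went against their labels, since SKI2 was nearly absent from those labelled dbp1 and DBP1 from those labelled ski2. They enter here only through the pooled estimate of the spread.

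The deleted genes gave the largest differences among called features and fitted the labels. ECM32 (YER176W, R64 chromosome V, 541690 to 545055) had rescaled densities of 0.000771 and 0.000462 in ecm32 and 0.185 and 0.190 in slh1. That was 5 reads against 1684, a ratio of 309 (95% counting interval 132 to 953). SLH1 (YGR271W, chromosome VII, 1031791 to 1037694) had 0.240 and 0.250 in ecm32 and 0.000147 and 0 in slh1, 3283 reads against 1, a ratio of 3578 (642 to 141360). Counting intervals cover counting error only. The noncoding rows XUT1162 and CUT571, listed next to ECM32 in the deposited table, were also at 0 in both ecm32 libraries. XUT1162 had 74 reads in slh1 and CUT571 had 41, so their levels were at least 22.6-fold and at least 12.5-fold lower in ecm32, with 3 reads per strain standing in for 0. Of the nearest tested genes beside the deletions, TMT1, YER175W-A, BMH1 and PDA1 beside ECM32 and HUA1, YTA7 and EFG1 beside SLH1, none passed the test, with adjusted p-values from 0.252 (HUA1) to 0.985 (YER175W-A). The other helicase genes of the series had log2 differences of -0.11 (DBP1), -0.08 (DHH1) and 0.21 (SKI2), and XRN1 had 0.10, none past the threshold.

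Of 9422 features with a mean density above the filter, 172 (1.83%) differed at an adjusted p under 0.05 (limma-trend, Benjamini-Hochberg over all tested features). In ecm32, 108 (1.15%) were higher and 64 (0.679%) lower, and 1470 had an unadjusted p under 0.05. The called features were mostly protein-coding genes, 104 higher (1.85%) and 53 lower (0.944%) of 5615 tested (2.8%). The called differences were small. Beside the deleted genes, called protein-coding genes ranged from 0.27 to 1.32 in log2 when higher and from -0.26 to -1.42 when lower. The median size over all calls was 0.46. Genes not called could differ more: ASP3-3 and ASP3-4, named after their values were seen, had log2 differences of -4.86 each. With values so alike, these rows may not be separate observations. In all 172 the libraries of the strains did not overlap, as was so for 47.9% of all tested features. With 2 libraries against 2 the smallest two-sided permutation p is 0.333, so the calls rest on a spread pooled over the 5 deletion strains.

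The number of calls depended on each of the 4 libraries. It was 2 without ecm32 replicate 1, 52 without ecm32 replicate 2, 4 without slh1 replicate 1 and 3 without slh1 replicate 2, where the lone library is assumed to vary like the other strains. ECM32 and SLH1 alone passed in all 4 of these fits, while all 172 kept their direction and an unadjusted p under 0.05 in each. With the 4 compared libraries alone in the fit, 2 features were called higher and 11 lower. Scaling moved the split of calls. On the densities as deposited, 294 were higher and 7 lower, and with factors from spike-ins 274 and 10, since the median of all tested features moved from -0.03 to 0.15 and 0.24. Directions below are therefore relative to the bulk of protein-coding genes, and in bulk RNA a lower level per cell and fewer cells with a transcript cannot be told apart.

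The list with the most calls was ribosome biogenesis, the factors that process and assemble ribosomal RNA in the nucleolus. Of the 92 listed genes, all tested, 34 rose in ecm32 relative to slh1 and none fell (37% called, against 1.83% of all tested features), and 86 had a difference above 0. Their median log2 difference was 0.33, beside -0.03 for all tested features. The geometric mean density over the list was 0.989 and 0.908 in ecm32 and 0.737 and 0.783 in slh1. WT, at 0.852 and 0.796, lay between the strains, and the libraries of the other deletions ran from 0.652 to 0.897. Without ecm32 replicate 1 no list member passed, without ecm32 replicate 2 the count was 20, and without either slh1 library it was 1, while the median relative to all features stayed between 0.29 and 0.44 in these fits.

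UTP14 (YML093W), a subunit of the processome that cleaves the small-subunit precursor, showed a large difference. Its density was 0.218 and 0.189 in ecm32 and 0.103 and 0.0893 in slh1, 2.06-fold higher in ecm32 (log2 1.04 ± 0.12 SE, adjusted p = 0.0122). Both slh1 libraries lay below WT (0.226 and 0.179), whereas the ecm32 libraries lay within its range. NOP4 (YPL043W), a nucleolar protein needed for the large subunit, had 0.442 and 0.363 in ecm32 and 0.207 and 0.190 in slh1 (2.00-fold, adjusted p = 0.0122). Here WT, at 0.289 and 0.309, lay between the strains. DRS1 (YLL008W), a helicase of large-subunit assembly, had 0.477 and 0.443 in ecm32 and 0.233 and 0.249 in slh1 (1.89-fold, adjusted p = 0.00276), the smallest adjusted p after the deleted genes. CBF5 (YLR175W), the pseudouridine synthase of box H/ACA particles, had 2.59 and 2.28 against 1.48 and 1.52 (1.62-fold, adjusted p = 0.0125). NOP58 (YOR310C), a core protein of box C/D particles, had 3.04 and 2.90 against 1.98 and 1.98 (log2 0.59, adjusted p = 0.00692). Named after their values were seen, its partner in the same particle, NOP56, was also higher (log2 0.39, adjusted p = 0.0477), and the methyltransferase of that particle, NOP1, did not pass (4.38 and 5.84 against 5.16 and 5.55, log2 -0.08, adjusted p = 0.832).

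Other called members acted at several steps of ribosome assembly. Named after their values were seen, small-subunit processome genes PWP2 (log2 0.52) and UTP21 (0.53), the large-subunit methyltransferases SPB1 (0.57) and NOP2 (0.47), and the RNA polymerase I subunits RPA49 (0.37) and RPC40 (0.32) all passed. The 6 listed genes at or below 0, likewise named afterwards, were NHP2, NOP1, NOP16, CGR1, NOP53 and RRP15, none called, with CGR1 the lowest at -0.33 (adjusted p = 0.574). SYO1, the import chaperone of ribosomal proteins Rpl5 and Rpl11, is not on the list and rose as well, with 0.855 and 0.694 in ecm32 and 0.531 and 0.498 in slh1 (1.49-fold, adjusted p = 0.0292). The 138 cytosolic ribosomal protein genes, by contrast, had 0 calls at a median of 0.03, with 8 at an unadjusted p under 0.05 and 0 called by limma-voom on recovered reads. RPS4B had the smallest p among them (log2 0.21, adjusted p = 0.163). Of the 81 tested genes of mitochondrial ribosomal proteins, 0 were called at a median of -0.06, with 6 at an unadjusted p under 0.05 and 0 by limma-voom.

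Several RNA helicase genes moved in the same direction. Apart from ECM32 and SLH1 themselves, 12 of 40 tested helicase genes rose in ecm32 relative to slh1 and none fell (against 1.85% of tested protein-coding genes called higher). Of the 12, 3 are also on the ribosome biogenesis list: DRS1 and, named after their values were seen, HAS1 and DBP3. DHR2 (YKL078W) had 0.420 and 0.363 in ecm32 against 0.226 and 0.233 in slh1 (1.69-fold, adjusted p = 0.0323). DBP7 (YKR024C) had 0.420 and 0.321 against 0.218 and 0.230 (1.63-fold, adjusted p = 0.0336). HCA4 (YJL033W) had 0.781 and 0.673 against 0.470 and 0.465 (1.55-fold, adjusted p = 0.0162), and RRP3 (YHR065C) 0.426 and 0.390 against 0.271 and 0.256 (1.54-fold, adjusted p = 0.0237). The ecm32 libraries were above both WT libraries for these 4 genes. The others, named after their values were seen, were ECM16, DBP10, ROK1, PRP43 and MTR4. All 12 are known to act on ribosomal RNA precursors or, for MTR4 and PRP43, also in nuclear RNA decay or splicing.

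**Figure D1:**
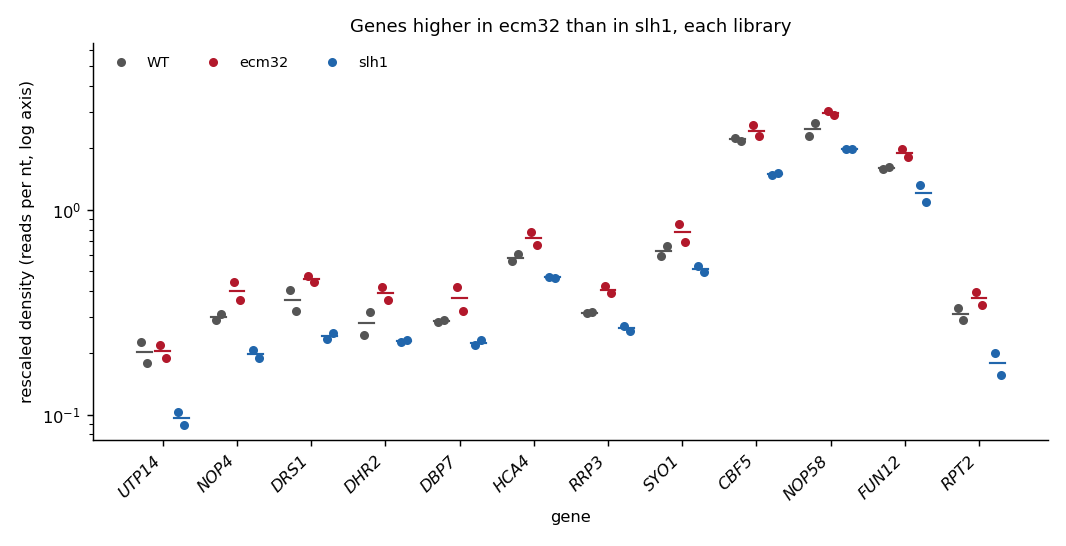
Rescaled density (reads per nt, log axis) of 12 genes called higher in ecm32, with 1 point per library and a bar at the mean of WT (grey), ecm32 (red) and slh1 (blue). Both slh1 libraries lie below both ecm32 libraries for each gene. For several genes, UTP14, RPT2 and CBF5 among them, the gap between WT and slh1 is wider than that between WT and ecm32.

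Genes that serve protein synthesis in other ways were also among the higher calls. FUN12 (YAL035W), initiation factor eIF5B, which joins the ribosomal subunits, had 1.98 and 1.81 in ecm32 and 1.32 and 1.10 in slh1 (1.57-fold, adjusted p = 0.0262). It was the single called member of 37 initiation and elongation factor genes (2.7%, against 2.8% of protein-coding genes called), whose median was 0.14. Of 20 cytosolic tRNA synthetase genes, a list added after their values were seen, 7 rose (35%, against 1.85% of protein-coding genes called higher). They were CRS1, GUS1, KRS1, SES1, THS1, VAS1 and WRS1. None fell, and all 20 were above 0 with a median of 0.29. THS1, which charges threonine tRNA, had 7.15 and 6.79 in ecm32 and 5.25 and 4.71 in slh1 (log2 0.49, adjusted p = 0.0249). Named after their values were seen, the tRNA modification genes TRM11 (log2 0.53), NCL1 (0.42), DUS1 (0.40), DUS3 (0.39), ELP3 (0.38), GCD10 (0.32) and PUS4 (0.32) passed too. They were picked because they passed. Other tRNA modification genes, such as TRM2, TRM12, GCD14 and PUS7, likewise named afterwards, did not pass. The share of this class that was called was not counted.

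Nucleotide synthesis showed the same direction in its called members. URA1, URA4 and URA7 of pyrimidine synthesis and GDH1 of glutamate synthesis rose. They were 4 of 32 tested genes of uracil and arginine use (12.5%, against 1.85% of protein-coding genes called higher), whose median was 0.03. URA1 (YKL216W) had 6.61 and 6.38 in ecm32 and 4.84 and 4.86 in slh1 (1.34-fold, adjusted p = 0.0124). Among 24 purine and one-carbon genes ADE4 (log2 0.38) and ADE13 (0.35) rose (8.33%), with a list median of 0.12. The Gcn4 target list had 2 higher calls of 54 (3.7%, against 1.85% of protein-coding genes), ADE4 and LYS21 (0.33).

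The quality control and termination lists, to which the deleted genes belong, held 2 other calls each. On the ribosome quality control list CDC48 rose and MBF1 fell beside SLH1, 3 of 29 tested genes. The list's 10.3% called, against 2.8% of protein-coding genes, counts SLH1, whose call follows from its deletion. CDC48 (YDL126C), the ATPase that extracts stalled nascent chains, had 3.92 and 3.81 in ecm32 and 2.88 and 2.39 in slh1 (1.47-fold, adjusted p = 0.0307). MBF1 (YOR298C-A), a factor that acts at collided ribosomes, had 5.18 and 4.96 against 6.26 and 6.48 (log2 -0.33 ± 0.06, adjusted p = 0.0396). On the deposited densities this list had 4 higher and 0 lower calls, and with spike-in factors 3 and 0, so MBF1 was not called lower there. On the list of termination and nonsense-mediated decay TPA1 and SUP45 rose beside the deleted ECM32, 3 of 22 tested genes. That list's 13.6% called, against 2.8% of protein-coding genes, likewise counts the deleted gene. SUP45 (YBR143C), release factor eRF1, had 4.02 and 3.89 in ecm32 and 3.31 and 3.25 in slh1 (1.21-fold, adjusted p = 0.0477). TPA1, a hydroxylase known to associate with the release factors, had 1.72 and 1.57 against 1.34 and 1.26 (1.27-fold, adjusted p = 0.0423). The medians of the lists were 0.12 and 0.14. Of 43 genes of cytoplasmic RNA decay, EDC2, a decapping enhancer, was the single call (log2 -0.62, adjusted p = 0.042). The share called there was 2.33%, near the 2.8% of protein-coding genes. On the deposited densities the decay list had 2 higher and 0 lower calls, and with spike-in factors 3 and 0.

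RPT2 (YDL007W), an ATPase subunit of the proteasome base, stood out from its complex. Its density was 0.398 and 0.343 in ecm32 and 0.199 and 0.156 in slh1, with WT at 0.330 and 0.290 (2.06-fold, adjusted p = 0.0132). RPT1 was the other call among 35 proteasome genes (log2 0.40, adjusted p = 0.0481), and the list median was 0.12. The calls made up 5.71% of the list, against 1.85% of protein-coding genes called higher. RPN4, the transcription factor of proteasome genes, lay on the other side without passing (log2 -0.34, adjusted p = 0.0562).

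**Figure D2:**
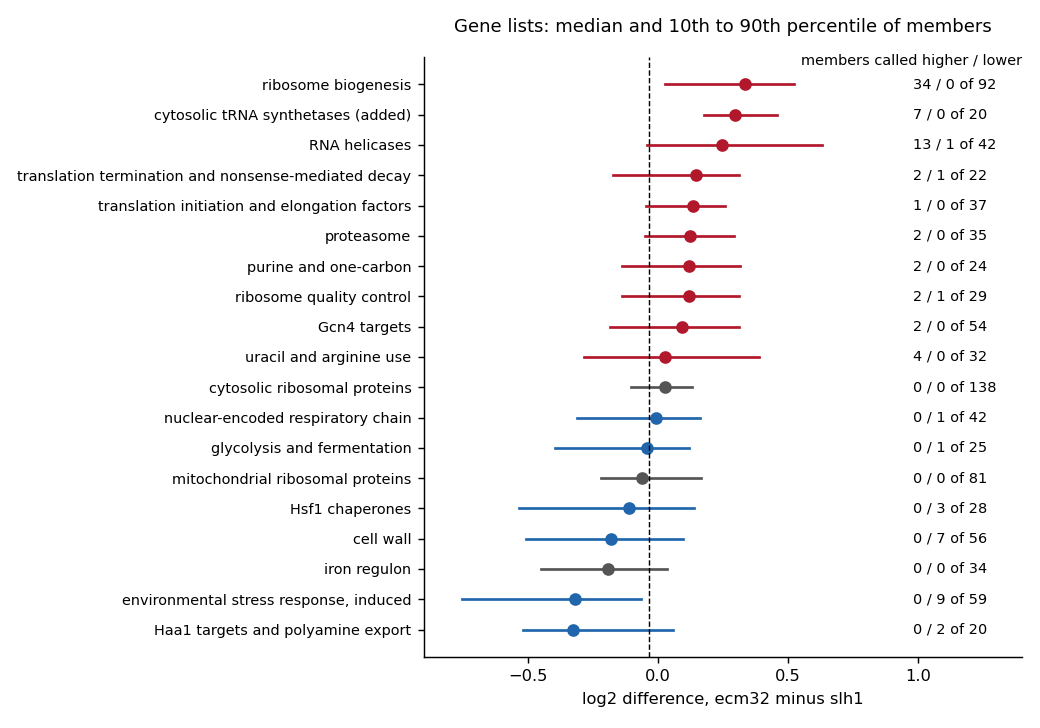
Median (point) and 10th to 90th percentile (line) of the log2 difference, ecm32 minus slh1, over the tested members of 19 gene lists, with the numbers called higher and lower at the right; colour gives the direction with more calls and the dashed line the median of all tested features, -0.03. Ribosome biogenesis (0.33) and the induced stress response (-0.32) lie near the opposite ends.

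The lower calls were led by genes of the environmental stress response, which yeast induces under many stresses through the factors Msn2 and Msn4. Of 59 tested genes on the induced list, 9 fell in ecm32 relative to slh1 and none rose (against 0.679% of all features called lower), 1 (UGA2, log2 0.0015, named after its value was seen) was above 0, and the median was -0.32. On the densities as deposited 3 were called lower at a median of -0.13, and with spike-in factors 2 at -0.04, while the median relative to all features was -0.28 on each of these scales. The geometric mean density over the list was 0.197 and 0.211 in ecm32 and 0.280 and 0.254 in slh1, with WT at 0.210 and 0.221. The dhh1 libraries, at 0.707 and 0.670, were far above both strains. Without ecm32 replicate 1, slh1 replicate 1 or slh1 replicate 2 no list member passed, and without ecm32 replicate 2 the count was 3.

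HSP42 (YDR171W), a small heat shock protein that gathers misfolded proteins, had 0.0875 and 0.0841 in ecm32 and 0.234 and 0.225 in slh1. It was 2.58-fold higher in slh1 (log2 -1.37 ± 0.14 SE, adjusted p = 0.00692), with WT between at 0.151 and 0.122. DDR2 (YOL052C-A), a stress-induced gene of low level, had 0.0230 and 0.0155 against 0.0748 and 0.0469 (2.67-fold higher in slh1, adjusted p = 0.0355), from 21 reads in ecm32. TSL1 (YML100W), of trehalose synthesis, had 0.166 and 0.186 in ecm32 and 0.411 and 0.360 in slh1 (2.16-fold, adjusted p = 0.0481), and GLC3 (YEL011W), the glycogen branching enzyme, 0.0663 and 0.0766 against 0.140 and 0.117 (1.74-fold, adjusted p = 0.0308). GLK1 (YCL040W), a glucokinase, had 0.543 and 0.615 against 1.07 and 1.15 (1.91-fold, adjusted p = 0.0423). The row of YCL042W, which overlaps the start of GLK1 on the same strand, had nearly the same reads and is not a separate observation. YGP1, a secreted glycoprotein, HOR7, STF2 and, named after its value was seen, PNC1 were the other calls on the list, with log2 differences of -0.80, -0.57, -0.57 and -0.48. For YGP1, STF2 and HOR7 the ecm32 libraries lay near WT and the slh1 libraries above it.

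Of 28 chaperone genes of the Hsf1 regulon, HSP42, CUR1 (log2 -0.73, adjusted p = 0.0477) and MBF1 fell (10.7%, against 0.944% of protein-coding genes called lower), while HSC82, an Hsp90, had a value above 0 that missed the threshold (log2 0.41, adjusted p = 0.0716). The list median was -0.11 here but 0.09 on the deposited densities (2 higher and 1 lower call) and 0.18 with spike-in factors (1 and 1), and relative to all features it was -0.06 to -0.09 under each scaling tried.

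Cell wall genes were the other group with several lower calls, 7 of 56 tested (12.5%, against 0.944% of protein-coding genes). None was called higher, and the list median was -0.18. On the deposited densities none was called and the median was 0.02, and with spike-in factors none was called lower, 1 was called higher and the median was 0.12. SED1 (YDR077W), a major mannoprotein of the wall, had 3.65 and 4.08 in ecm32 and 6.66 and 7.11 in slh1 (1.78-fold higher in slh1, adjusted p = 0.0132). CWP1, another wall mannoprotein, had 1.27 and 1.52 against 2.03 and 1.93 (1.43-fold, adjusted p = 0.0361), and DSE2, a protein of daughter-cell separation, 1.42 and 1.55 against 2.06 and 2.17 (1.42-fold, adjusted p = 0.0124). YPS1 and, named after their values were seen, HSP150, SCW11 and EGT2 were the remaining calls, from -0.51 to -0.26. SCW11 and EGT2 turned to 0.01 and 0.04 with spike-in factors. On the list of Haa1 targets and polyamine export, YGP1 and TPO3, a polyamine exporter (log2 -0.49, adjusted p = 0.0124), fell. They were 2 of 20 tested genes (10%, against 0.944% of protein-coding genes called lower), and the list median was -0.33. On the deposited densities 1 was called lower at a median of -0.12, and with spike-in factors 0 at -0.03. The iron regulon had 0 calls of 34 (8 at an unadjusted p under 0.05, 2 by limma-voom), with 4 members above 0 and a median of -0.19 that was 0.001 on the deposited densities and 0.09 with spike-in factors.

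Other lower genes by the size of their difference were YIR042C (log2 -1.10), AIM17 (-0.89), YBR032W (-0.89), SDS24 (-0.88) and PET117 (-0.75), an assembly factor of cytochrome oxidase. A few more genes were singled out after their values were seen and stand for no group. CLN3, the G1 cyclin, had 0.242 and 0.246 in ecm32 and 0.361 and 0.401 in slh1 (log2 -0.63, adjusted p = 0.0477), and WHI3, an RNA-binding protein that restrains CLN3, had 0.308 and 0.305 against 0.436 and 0.435 (-0.50, adjusted p = 0.0236). RAS2 (-0.31) and SOK2 (-0.51), both of the protein kinase A pathway, passed as well. COX5B (-0.47), MET13 (-0.56) and, higher, PYC2 (0.32) and ERG20 (0.28) were called too. The nuclear-encoded respiratory chain list had 1 lower call of 42 (2.38%), and sulfur amino acids 1 lower call of 37 (2.7%). The tricarboxylic acid cycle list had 1 higher call of 19 (5.26%). Ergosterol synthesis and hypoxic genes had 1 higher and 1 lower call of 44 (4.55%). Of all protein-coding genes 2.8% were called.

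**Figure D3:**
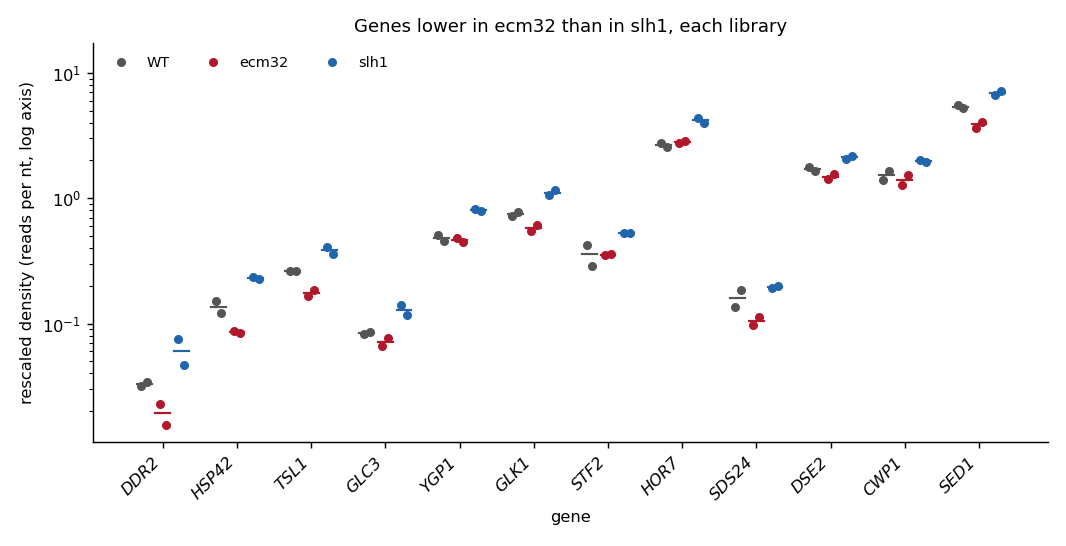
Rescaled density (reads per nt, log axis) of 12 genes called lower in ecm32, with 1 point per library and a bar at the mean of WT (grey), ecm32 (red) and slh1 (blue). Both slh1 libraries lie above both ecm32 libraries for each gene; for HSP42 WT lies between (0.151 and 0.122), and for YGP1 WT (0.511 and 0.456) lies by ecm32.

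WT, which did not enter the fit, lay between the strains for most calls. Among the 108 higher calls, both ecm32 libraries were above both WT libraries for 96, and both slh1 libraries below both for 85, against 1774 and 1650 of all 9422 tested features. The median log2 difference from WT was 0.25 for ecm32 and -0.18 for slh1. Among the 64 lower calls, both ecm32 libraries were below WT for 53 and both slh1 libraries above for 46, against 2280 and 1819 of all, with medians of -0.31 and 0.22. These counts include the deleted genes, and XUT1162 and CUT571 listed next to ECM32. A contrast of 2 strains selects genes on which they lie apart, so the counts describe the calls and are no separate test.

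The promoters of the called genes were read from the R64 genome, as the 300 bases before each start codon. Letters searched on both strands were the core of the PAC element (GATGAG), the core of RRPE (AAAATTTT) and the stress response element STRE (AGGGG). PAC and RRPE are known to lie before ribosome biogenesis genes, and STRE is bound by Msn2 and Msn4. The windows below show the match nearest the start codon in 6 genes higher in ecm32, with PAC letters in capitals, and in 5 lower genes, with STRE letters in capitals, each read 5′ to 3′ on the gene's strand.
DRS1, chrXII:131603-131632, + strand: aaaatgcgatgaGATGAGgttgaaaattgt
UTP14, chrXIII:82985-83014, + strand: aattcctatggcGATGAGctgaaaaaattc
NOP4, chrXVI:469812-469841, + strand: agtctatctcatCTCATCgtttattctgaa
NOP58, chrXV:898465-898494, - strand: aaatttttcaacCTCATCgaaaattttcag
CBF5, chrXII:505991-506020, + strand: aaattttcaaatGATGAGatgtttagctta
DBP7, chrXI:487494-487523, - strand: tgaaaaatttgcGATGAGcttaggaaaata
HSP42, chrIV:806427-806456, + strand: ggccttggcggcAGGGGggaggcctctgtg
DDR2, chrXV:231913-231942, - strand: tgtcttttctcaCCCCTtatgggacatcaa
TSL1, chrXIII:70447-70476, + strand: ggggtagaaccaAGGGGctagcacactcac
GLK1, chrIII:50659-50688, + strand: ctttcagggggcCCCCTatcttgggcgtgg
SED1, chrIV:600593-600622, + strand: tagattggccgtAGGGGctggggtagaact

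These matches lay 93 to 139 bases before the start codon for the 6 PAC windows and 165 to 188 bases before it for the 5 STRE windows. PAC letters stood before 75 of the 104 higher protein-coding genes (72.1%), against 18.8% of all 5615 tested, and before 3 of the 53 lower genes (5.66%). RRPE letters stood before 62 of the higher genes (59.6%, against 9.9% of all), and 50 had both (48.1%, against 4.76%). The higher genes include the deleted SLH1, which had RRPE letters, and the lower genes the deleted ECM32, which had none of the letters searched. Of the 70 higher genes outside the ribosome biogenesis list, 43 had PAC letters (61.4%). The list is not complete, and the 70 include helicases that act on ribosomal RNA precursors, such as DHR2 and DBP7. STRE letters stood before 29 of the 53 lower genes (54.7%), against 22.7% of all tested and 13.5% of the higher genes, and before 21 of the 44 lower genes outside the stress list (47.7%). RPT2 had no PAC match and YGP1 no STRE match in this window. A match is a description of letters, not a bound site.

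The groups with these letters were also set against all genes, called or not. The 267 genes with both PAC and RRPE letters had a median log2 difference of 0.22, beside -0.01 for all protein-coding genes, and the 1276 genes with STRE letters a median of -0.07. Of the 138 cytosolic ribosomal protein genes, whose median was 0.03, 11.6% had PAC letters. These genes are not independent of the lists above, since the elements are known from them.

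**Figure D4:**
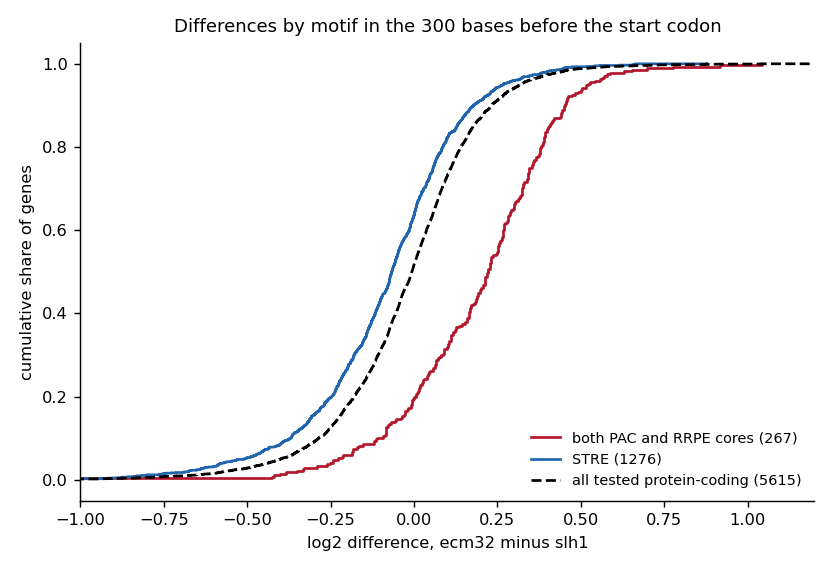
Cumulative share of genes (0 to 1) by log2 difference, ecm32 minus slh1, for the 267 genes with both PAC and RRPE letters (red), the 1276 with STRE letters (blue) and all 5615 tested protein-coding genes (dashed). The red curve lies to the right of the dashed curve (median 0.22 against -0.01) and the blue curve slightly to its left (-0.07).

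The noncoding classes held few calls. Of 1397 tested XUTs, 2 were called (0.143%, against 1.83% of all features), XUT1162 beside ECM32 and XUT1154, and the class median was -0.07. XUT1154 had 0.0439 and 0.0334 in ecm32 and 0.0188 and 0.0193 in slh1 (adjusted p = 0.0477), but on only 24 and 13 reads, whose ratio of 2.01 has a counting interval of 0.984 to 4.30. Of 824 CUTs, transcripts degraded by the nuclear exosome, 5 were called, all lower in ecm32 (0.607%, near the 0.679% of all features called lower). They were CUT571 (listed next to the deleted ECM32), CUT715, CUT362, CUT567 and CUT537. CUT537 had 26 reads in ecm32 and 43 in slh1, a ratio of 1.52 with a counting interval of 0.912 to 2.57. CUT362 had 13 and 30 reads, a ratio of 2.12 (1.07 to 4.42). CUT715 had 3 reads in ecm32 and 23 in slh1, a ratio of 7.03 (2.13 to 36.6). Of 76 snoRNAs snR52 fell (6.89 and 6.42 against 10.2 and 11.2, adjusted p = 0.0336). The share of snoRNAs called was 1.32%, near the 1.83% of all features. CUT567 had nearly the same reads as snR52. Of 1093 NUTs, transcripts that appear when Nrd1 is depleted, NUT0318 was higher and NUT1269 lower (0.183% called, against 1.83% of all features). NUT0318 had the same 544 reads in ecm32 as COS8, a subtelomeric gene with close paralogs (log2 0.88, adjusted p = 0.0122). Class medians were -0.12 for CUTs, -0.09 for NUTs and -0.20 for snoRNAs, and no mitochondrial or 2-micron plasmid feature was called. At these depths many noncoding features had few reads, and differences under the spread between replicates were not detectable.

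Subtelomeric and overlapping rows need caution. YHL050C, a gene in the Y′ repeats at the left end of chromosome VIII, gave the largest higher difference among calls after SLH1. It had 0.0511 and 0.0466 in ecm32 and 0.0133 and 0.0203 in slh1 (2.49-fold, adjusted p = 0.0237), but reads could be split among near-identical copies. The called rows YBL039C-A and YBR121C-A, named after their values were seen, overlap URA7 and GRS1. No chromosome stood apart as a whole, since medians of protein-coding genes ran from -0.06 (chromosome III) to 0.01 (chromosome XII).

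Other lists with 0 calls were gluconeogenesis, fatty acid oxidation, hexose transport, the phosphate regulon, copper and zinc, thiamine and vitamin B6, pheromone response, mating-type genes, histones, meiosis, seripauperins, multidrug export, antioxidant enzymes, auxotrophic markers, mitochondrially encoded proteins and silencing, with medians from -0.26 (8 seripauperins) to 0.12 (22 thiamine genes). Of their 273 tested genes limma-trend called 0, 44 had an unadjusted p under 0.05 and limma-voom called 10, so the count of 0 does not show that they were equal.

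Slh1 is known in yeast to act on ribosomes stalled at runs of lysine codons, so protein-coding genes were also ordered by their longest run of AAA or AAG codons. The median log2 difference was -0.04 over 1033 genes with runs of 1 or none, -0.0023 over 3384 with 2, 0.0024 over 994 with 3, 0.04 over 144 with 4, 0.07 over 40 with 5 and 0.01 over 20 with 6 or more. In the same order of run length, 3, 57, 32, 7, 4 and 1 genes were called higher and 16, 29, 6, 1, 1 and 0 lower. Over all tested protein-coding genes 1.85% were called higher and 0.944% lower. Run length was not separated from gene length or from ribosome biogenesis genes, and a link to Slh1 was not tested.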

How the data were processed

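Stranded RNA-seq of rRNA-depleted RNA was deposited for 12 libraries of 6 strains, of which 4 are compared here. Build R64, featureCounts 2.0.0, HISAT2 2.2.0, Trim Galore and DESeq2 appear in the submitters' processing notes without roles. The authors deposited a signal, normalized densities per feature. Whole reads could be recovered from them (100% of 124137 values above 0 within 0.01 read, partly because feature lengths were searched for), which identified the densities as reads per nucleotide divided by a size factor. Whether reads were counted by strand is not given in the sources used here.

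Densities were rescaled by median ratios over 5917 rows, those with ids starting with Y and values above 0 in all 12 libraries. Most but not all are classed as protein-coding. limma-trend (limma 3.58.1, R 4.3.3) was fitted to log2(density + 0.005191), the pseudocount being the 10th percentile of values above 0, for features whose mean over the 4 libraries exceeded it. A fold is on that scale and understates changes of low features. The 10 libraries of the 5 deletion strains entered, 1 coefficient per labelled strain (5 residual degrees of freedom, prior 3.94), two-sided, Benjamini-Hochberg threshold 0.05. No batch is given in the labels. Replicate numbers did not pair the libraries (correlation of replicate differences -0.00018 between ecm32 and slh1), so no block was used. The fit was tested on simulated data.

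The members, the naming rule and the lists were chosen with earlier results of these data known. The rule names the deleted genes, other helicases, XRN1, neighbours, up to 15 higher and 15 lower called protein-coding genes by size, up to 5 each way per noncoding class, up to 4 by p per list and the marker genes, and other genes are said to be named after their values were seen. Lists are described by counts and medians, with no set test. Alternatives were other scalings, libraries in the fit, pseudocounts, filters, limma-voom on recovered reads, a replicate block and leaving out each library.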

Additional observations from a re-analysis of the deposited data

How the results depend on the processing

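The count of called features was 172 (108 higher, 64 lower). It was 301 on the densities as deposited, 284 with factors from spike-ins and 108 after quantile normalization. It was 13 with the 4 compared libraries alone in the fit, 54 without the dhh1 libraries, 114 with the pseudocount divided by 10, 294 with a filter 10 times higher and 340 by limma-voom on recovered reads. Factors from the 4 compared libraries (170), all 12 libraries in the fit (135), 4 times the pseudocount (171) and no filter (119) stayed within 1.5 times. Leaving out a library gave 2 to 52 calls. Of the 172 features, 167 were also called by limma-voom, 114 on the deposited densities and 11 with the 4 libraries alone. With the replicate block 214 were called, 159 of them among the 172, although the numbers did not pair the libraries (correlations of replicate differences from -0.037 to 0.091 over 10 strain pairs).

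The median of the ribosome biogenesis list relative to all features was 0.37 and ran from 0.29 to 0.44 when a library was left out. That of the induced stress list was -0.28, from -0.37 to -0.19 when a library was left out. Of the 172 called features, 2 changed direction under any of the 17 alternatives: with spike-in factors EGT2 was 0.039 and SCW11 0.012. Over these and 17 features not called, 1895 values kept their side of the threshold, 1275 lost it with the same direction, 7 gained it and 25 changed direction. On deposited densities, with spike-in factors and after quantile normalization, DBP1 was 0.076, 0.16 and 0.011, and YER175W-A 0.14, 0.23 and 0.084. On the former pair of scales DHH1 was 0.12 and 0.22, NOP1 0.13 and 0.22, PDA1 0.14 and 0.23, and YTA7 0.13 and 0.22. With a library left out, DBP1 ran from -0.27 to 0.043, NOP1 from -0.29 to 0.12, TMT1 from -0.0067 to 0.069, UGA2 from -0.023 to 0.026, YER175W-A from -0.45 to 0.37, YTA7 from -0.16 to 0.0066 and EFG1 from -0.039 to 0.53. The cause of these differences was not tested. Called features had a median of 2974 reads per strain against 364 for all tested features, so depth limits what could be called among low features.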
